A study of Mus musculus with 2 samples.

Results

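Tumour macrophages that carried RNA of both *Rsad2* and *Isg15* but none of *Cxcl9* were described in single-cell RNA data from MC38 tumours, and are called *Rsad2* *Isg15* macrophages below. A barcode, the tag that stands for 1 captured cell, was a member if it had at least 500 unique molecular identifiers (UMIs, counted RNA molecules), at least 200 genes, at most 10% mitochondrial UMIs and at least 10 UMIs of the macrophage genes *C1qa*, *C1qb* and *C1qc* together. It also had to hold at least 1 UMI of *Rsad2*, at least 1 of *Isg15*, none of *Cxcl9*, none of the T cell genes *Cd3d*, *Cd3e* and *Cd3g*, and at most 1 UMI of the resident macrophage gene *Lyve1*. This rule found 398 of 19261 barcodes, 113 in the UEIS KI library and 285 in the UEIS LSL library. They were set against 8890 barcodes that passed the same limits with no UMI of *Rsad2* or *Cxcl9*, called *Rsad2*-zero macrophages, 4653 in UEIS KI and 4237 in UEIS LSL. Because *Rsad2*, *Isg15*, *Cxcl9* and the C1q genes chose the members, their own levels are given as a description.

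The study grew subcutaneous tumours of MC38, a mouse colon carcinoma line, in C57BL/6 mice, and sequenced the immune cells sorted by CD45 from tumours of 1 UEIS KI and 1 UEIS LSL sample. UEIS is a micropeptide that the study's title describes as a repressor of cGAS-STING and type I interferon signalling. The labels spell out neither KI nor LSL, nor whether the host or the implanted cells differ, nor the promoter, the age or the number of mice behind a library. Each group is 1 library, so a difference between libraries and a difference between groups cannot be told apart, and no test, p-value or standard error is given. Intervals are exact 95% intervals of counting error only.

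Type I interferons are released when cells sense foreign or misplaced nucleic acid, among other routes by the DNA sensor cGAS and its adaptor STING. They bind a receptor on most cell types, and transcription factors then bind interferon-stimulated response elements in the promoters of a large set of antiviral genes. *Rsad2* encodes viperin, an enzyme that makes a chain-terminating nucleotide against viral RNA synthesis, and *Isg15* encodes a ubiquitin-like protein that is joined to other proteins. *Cxcl9*, which calls T cells through Cxcr3, is induced mainly by interferon-gamma.

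Promoter sequence of genes described below is shown because the response element just named was looked for there. Of the 7 stretches shown, 6 hold matches and 1 holds none, so they are no fair sample of promoters; the shares over whole lists follow them. The RefSeq windows (GRCm38.p6, 250 bases before to 50 bases after the start of the gene) were searched on both strands for its core, GAAA followed by any 2 bases and again GAAA, and matches are in capitals, read 5′ to 3′ on the gene's own strand. The *Rsad2* stretch lies on chr12:26456513-26456622 (minus strand), *Isg15* on chr4:156200831-156200940 (minus), *Ifit1* on chr19:34640744-34640853 (plus) and *Ifit3* on chr19:34583340-34583449 (plus). *Cxcl10* lies on chr5:92349030-92349139 (minus), *Ifi211* on chr1:173913047-173913156 (minus) and *Irf7* on chr7:141266425-141266534 (minus). These are the positions of the 110 bases shown, all before the RefSeq start of the gene. In GENCODE vM21 the *Irf7* gene starts at 141266481, inside its stretch.
Rsad2: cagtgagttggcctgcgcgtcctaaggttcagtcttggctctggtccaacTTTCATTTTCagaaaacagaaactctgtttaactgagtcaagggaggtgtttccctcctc
Isg15: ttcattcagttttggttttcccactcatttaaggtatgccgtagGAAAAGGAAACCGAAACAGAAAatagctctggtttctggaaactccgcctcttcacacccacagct
Ifit1: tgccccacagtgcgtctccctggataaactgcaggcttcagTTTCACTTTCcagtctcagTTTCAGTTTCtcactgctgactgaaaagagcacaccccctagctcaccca
Ifit3: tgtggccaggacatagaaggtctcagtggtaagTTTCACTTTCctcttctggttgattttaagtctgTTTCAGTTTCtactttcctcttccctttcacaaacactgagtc
Cxcl10: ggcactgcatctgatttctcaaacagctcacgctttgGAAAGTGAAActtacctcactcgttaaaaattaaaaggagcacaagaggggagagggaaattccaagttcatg
Ifi211: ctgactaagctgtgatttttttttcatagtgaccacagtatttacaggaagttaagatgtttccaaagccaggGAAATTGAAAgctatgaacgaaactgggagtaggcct
Irf7: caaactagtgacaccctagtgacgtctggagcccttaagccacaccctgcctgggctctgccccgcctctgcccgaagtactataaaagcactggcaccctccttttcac

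The stretch of *Isg15* held 3 overlapping matches in a row, those of *Ifit1* and *Ifit3* held 2 each, and those of *Rsad2*, *Cxcl10* and *Ifi211* held 1 each. The whole *Irf7* window held none. Of the 61 genes on the type I interferon list, 47 had a window and 22 of those (46.8%) held the core, against 1079 of 27025 genes of the table (3.99%). Of the 15 leading measured genes of the members, named further on, 13 had a window and 5 of those (38.5%) held the core, *Ifi211*, *Mmp13*, *Cxcl10*, *Phf11b* and *Ifi203*; the window of *Mmp12* held none. On the list of guanylate-binding proteins and immunity-related GTPases 10 of 11 windows held it, and on the cell cycle list 1 of 27. A match is a description of letters, and says nothing of binding in these cells.

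*Rsad2* *Isg15* macrophages were 2.25% (1.86 to 2.70) of the 5017 C1q-positive barcodes in UEIS KI and 5.36% (4.77 to 6.00) of 5319 in UEIS LSL, a ratio of 0.420 (0.335 to 0.524). Reading a gene as present depends on depth, and the members' median depth was 11878 UMIs in UEIS KI and 10878 in UEIS LSL, against 10800 and 9342 UMIs in their *Rsad2*-zero macrophages. After each barcode was thinned to 5000 UMIs, which left out 522 UEIS KI and 674 UEIS LSL barcodes, members were 1.31% (1.001 to 1.69) in UEIS KI and 3.53% (3.02 to 4.10) in UEIS LSL. With at least 2 UMIs of each gene the shares were 1.34% in UEIS KI and 2.80% in UEIS LSL. The UEIS KI share was the lower one under each of these readings, and the intervals did not overlap.

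**Figure D1:**
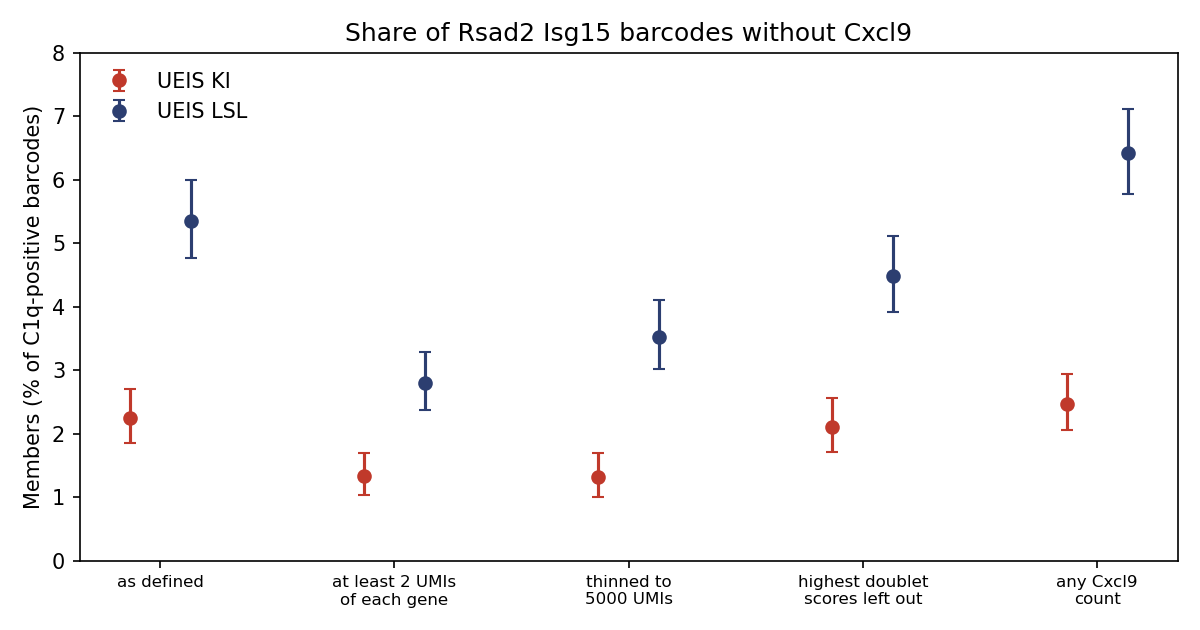
Share of *Rsad2* *Isg15* macrophages among C1q-positive barcodes (y axis, %) in UEIS KI (red, left) and UEIS LSL (blue, right) under 5 readings of the rule, with exact 95% binomial intervals for counting error. The UEIS KI share lies between 1.31% and 2.47% and the UEIS LSL share between 2.80% and 6.43%.

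Free RNA in the droplets can place single UMIs in cells that do not make them. T cells, which can make interferon-induced RNA too, are given beside the macrophages here. At 1000 UMIs a barcode, *Rsad2* was seen in 1.06% of C1q-positive barcodes of UEIS KI and 2.47% of UEIS LSL, against 3 of 72 UEIS KI T cell barcodes (4.17%) and 4 of 91 UEIS LSL ones (4.4%). Before thinning the C1q-positive barcodes had median depths of 10823 UMIs in UEIS KI and 9620 in UEIS LSL, against 2008 and 2706 for T cell barcodes, of which 3 of 75 and 12 of 96 held *Rsad2*. Both genes together were seen, after thinning, in 0.439% and 1.17% of C1q-positive barcodes of UEIS KI and UEIS LSL, against 0 of 72 UEIS KI T cell barcodes, with an exact upper bound of 4.99%, and 2 of 91 UEIS LSL ones. A share of barcodes with a UMI is therefore no measure of expression by itself, and the part of free RNA in the member counts was not tested. Of the *Ifit1* UMIs of the C1q-positive barcodes, the members held 63.3% in UEIS KI and 59.5% in UEIS LSL, with 2.56% and 6.08% of all UMIs. No limit used *Ifit1*, but it is induced by type I interferon like *Rsad2* and *Isg15*, which chose the members. These shares are therefore a description.

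The label was checked against markers. All 12 macrophage markers were detected in members of both libraries, with summed levels of 13738 CPM (UMIs of a gene per 1000000 UMIs of the set) in UEIS KI members and 12855 CPM in UEIS LSL members, against 15355 and 16560 CPM in *Rsad2*-zero macrophages. *C1qa*, *C1qb* and *C1qc* are among these 12 and were required together by the rule in both sets. Their detection and their part of the sums are therefore a description and no check of the label. Only 3 of the 12 stood higher in members than in *Rsad2*-zero macrophages in UEIS KI, and 2 in UEIS LSL. *Cd68*, among them in both libraries, stood at 792 CPM in UEIS KI members against 636 CPM in *Rsad2*-zero macrophages, and at 741 against 542 CPM in UEIS LSL. Monocyte markers differed little in sum, with 1182 against 1127 CPM in UEIS KI and 1141 against 991 CPM in UEIS LSL. Of these 8 markers, 5 stood higher in members in UEIS KI and 6 in UEIS LSL. *Ly6c2* stood at 30.9 against 6.70 CPM in UEIS KI and 25.8 against 8.16 CPM in UEIS LSL. T cell markers summed to 5.04 against 3.85 CPM in UEIS KI and 15.4 against 6.14 CPM in UEIS LSL, with *Cd3d*, *Cd3e* and *Cd3g* at 0 by rule and *Cd8a* at 0 without it. Plasmacytoid dendritic cell markers summed to 601 against 299.6 CPM in UEIS KI and 672 against 313 CPM in UEIS LSL, with *Siglech*, *Klk1* and *Ly6d* at 0 in members of both libraries. Only 1 of these 6 markers stood higher in members of each library. It was *Bst2*, a gene of the type I interferon list, at 489 CPM in UEIS KI members and 577 CPM in UEIS LSL members. Conventional dendritic cell markers summed to 118 against 26.7 CPM in UEIS KI, with *Xcr1*, *Clec9a* and *Zbtb46* at 0. In UEIS LSL they summed to 74.3 against 67.2 CPM, with *Clec9a* and *Itgae* at 0. Of these 10 markers, 6 stood higher in members in UEIS KI and 4 in UEIS LSL. The UEIS KI member sum is 187 UMIs and includes *Ccl22*, most of whose UMIs there lay in 1 barcode.

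Other signs moved with membership. Barcodes with the highest doublet scores were 17 of 113 UEIS KI members and 70 of 285 UEIS LSL members (24.6%), against 9.0% and 8.43% of *Rsad2*-zero macrophages. *S100a8* or *S100a9* was seen in 27.4% of UEIS KI members and 14.4% of UEIS LSL members, against 21.5% and 5.83% of *Rsad2*-zero macrophages, and neutrophil markers summed to 296 against 201 CPM in UEIS KI and 203 against 38.7 CPM in UEIS LSL. The libraries share 34 barcode sequences, which 1 UEIS KI and 2 UEIS LSL members carry. The part of doublets and neutrophil RNA in the results below was not tested, and the values without such barcodes are given with the alternatives.

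Against *Rsad2*-zero macrophages, the members carried higher levels of nearly the whole type I interferon list in both libraries. All 61 list genes had a higher level in members in both libraries, by at least 1.5-fold for 61 genes in UEIS KI and 57 in UEIS LSL. Ratios were read where a gene had at least 20 expected UMIs in each set. This limit was passed by 27 of the 61 genes and by 7060 genes in all. The other 34 had too few UMIs at their pooled level. That level rests mostly on the more numerous *Rsad2*-zero macrophages, so genes found nearly only in members tend to fail the limit. Of the 27, 27 were at least 1.5-fold higher in UEIS KI and 24 in UEIS LSL, with median log2 ratios of 1.63 and 1.38. The background is 2.71% of all 7060 genes at least 1.5-fold higher in UEIS KI and 3.87% in UEIS LSL, with medians of −0.10 and −0.14. Because the members were chosen by 2 genes of this program, these counts describe how far the program travels with *Rsad2* and *Isg15* and support nothing beyond that.

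Of the 22 antiviral effectors that bind viral RNA or block replication, 5 were measured. All 5 were at least 1.5-fold higher in both libraries, against 1.53% of all measured genes, with median log2 ratios of 1.54 in UEIS KI and 1.45 in UEIS LSL. *Ifit1*, *Ifit2*, *Ifit3*, *Mx1* and *Cmpk2* are on this list but were under the count limit, so they are not among the 5. *Ifit1*, whose protein binds viral RNA that lacks a host cap mark, stood at 248 CPM in UEIS KI members against 1.89 CPM in *Rsad2*-zero macrophages, and at 248 CPM in UEIS LSL members against 6.21 CPM. Its ratio was 131 (106 to 164) in UEIS KI and 39.9 (34.9 to 45.8) in UEIS LSL. *Ifit3*, a partner of Ifit1, stood at 251 against 1.91 CPM in UEIS KI and 194 against 2.86 CPM in UEIS LSL. *Mx1*, a gene of the Mx GTPase family, stood at 59.2 against 0.874 CPM in UEIS KI and 39.8 against 2.68 CPM in UEIS LSL. *Ifit1* and *Ifit3* were seen in 61 and 59 of 113 UEIS KI members and in 140 and 111 of 285 UEIS LSL members, and not detected in the rest at this depth. Thinned to 5000 UMIs, *Ifit1* was seen in 34.3% of UEIS KI members against 0.745% of *Rsad2*-zero macrophages, and in 34.2% against 2.30% in UEIS LSL.

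*Cmpk2*, a nucleotide kinase encoded beside *Rsad2* whose product feeds viperin, stood at 75.6 against 0.892 CPM in UEIS KI and 64.8 against 1.22 CPM in UEIS LSL. *Ifit2* stood at 74.3 against 0.769 CPM in UEIS KI and 72.0 against 1.55 CPM in UEIS LSL. *Cmpk2*, *Ifit2* and *Mx1* were picked for the text after their values were seen. The membrane proteins that hinder virus entry and release were abundant everywhere and less far apart: *Ifitm3* stood at 1751 against 569 CPM in UEIS KI and 2274 against 960 CPM in UEIS LSL, and *Bst2*, which tethers budding virus, at 489 against 177 CPM and 577 against 211 CPM. *Ly6e* was the least far apart of the 4 most abundant measured list genes, with ratios of 1.78 in UEIS KI and 1.29 in UEIS LSL.

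Of the 5 enzymes that join Isg15 to proteins or remove it, 2 were measured, *Ube2l6* and *Trim25*. Both were at least 1.5-fold higher in both libraries, against 1.53% of all measured genes. *Usp18*, which removes Isg15 and blocks the interferon receptor, stood at 103 against 1.91 CPM in UEIS KI and 100.4 against 5.65 CPM in UEIS LSL. *Ube2l6*, the conjugating enzyme, had ratios of 3.08 (2.52 to 3.75) and 2.61 (2.27 to 2.98) in UEIS KI and UEIS LSL, and *Herc6*, the mouse ligase, 4.79 and 4.45. *Uba7*, the activating enzyme, had 2.35 (1.55 to 3.42) in UEIS KI and 1.32 (0.970 to 1.77) in UEIS LSL, where the interval includes 1.

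Among the 7 measured interferon regulatory factors *Irf7*, which amplifies interferon production, was the furthest apart. *Irf7* stood at 305 CPM in UEIS KI members against 14.9 CPM in *Rsad2*-zero macrophages, and at 267 against 27.5 CPM in UEIS LSL, with ratios of 20.5 (18.3 to 22.9) and 9.72 (8.92 to 10.6). It was seen in 82 of 113 UEIS KI members and 211 of 285 UEIS LSL members. *Irf7* alone of the 7 was at least 1.5-fold higher in both libraries, against 1.53% of all measured genes; *Irf3*, which STING activates without new RNA, had 0.827 (0.552 to 1.19) and 0.850 (0.661 to 1.08), and *Irf1* had 2.06 in UEIS KI and 1.12 in UEIS LSL. The receptor chain *Ifnar1* had ratios of 1.18 (0.998 to 1.38) and 1.03 (0.920 to 1.14).

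Cytosolic sensors of viral RNA split from their adaptor. *Ddx58*, which encodes RIG-I, had ratios of 6.44 in UEIS KI and 3.93 in UEIS LSL, and *Ifih1*, which encodes MDA5, 4.99 and 3.69, both under the count limit; *Mavs*, the adaptor on mitochondria, was the 1 measured gene of 6, at 0.588 and 0.638. Among inhibitors of the pathway *Socs1*, which binds Jak kinases, stood at 37.8 against 13.5 CPM in UEIS KI and 47.7 against 18.97 CPM in UEIS LSL, while *Socs3*, which acts mainly on interleukin 6 signalling, had ratios of 0.782 and 0.656.

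Of the cGAS-STING pathway itself most measured components stayed within 1.5-fold. Of its 15 measured components, 2 in UEIS KI and 0 in UEIS LSL were at least 1.5-fold higher, against 2.71% and 3.87% of all measured genes. The highest log2 ratio was 1.04 in UEIS KI and 0.58 in UEIS LSL. The medians were −0.22 and −0.23, against −0.10 and −0.14 for all genes. *Cgas*, the sensor, had 1.60 (1.11 to 2.24) in UEIS KI and 1.16 (0.910 to 1.45) in UEIS LSL. *Sting1*, the adaptor, stood at 30.9 against 42.2 CPM in UEIS KI and 48.8 against 59.2 CPM in UEIS LSL, with ratios of 0.732 (0.540 to 0.971) and 0.825 (0.703 to 0.962). *Ifnb1*, which encodes interferon-beta, had 4 UMIs in 2 UEIS KI members and 28 UMIs in 6 UEIS LSL members, and members held 20% and 33.7% of the *Ifnb1* UMIs of the C1q-positive barcodes. None of the interferon-alpha genes on the list had a UMI in members. *Ifng*, which encodes interferon-gamma and is made by T and natural killer cells, had no UMI in UEIS KI members and 37 UMIs in UEIS LSL members, beside T cell markers of 15.4 CPM in that library.

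The Ifi200 family of DNA-binding and inflammasome-related proteins was higher nearly throughout. Of 7 measured members of the family 6 were at least 1.5-fold higher in both libraries, against 1.53% of all measured genes. Only *Aim2*, which starts the DNA inflammasome, was not, with ratios of 1.22 (0.923 to 1.58) in UEIS KI and 1.15 (0.948 to 1.39) in UEIS LSL. *Ifi211* stood at 154 against 12.1 CPM in UEIS KI and 161 against 24.8 CPM in UEIS LSL, *Ifi209* at 163 against 14.4 CPM and 163 against 26.6 CPM, and *Ifi204* at 204 against 28.8 CPM and 234 against 47.1 CPM. These genes, like *Ifit1* and *Ifit3* and their close copies, *H2-Q6* and *H2-Q7*, and the Oas1 genes, are near-identical to neighbours, so the split of UMIs among copies is uncertain.

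**Figure D2:**
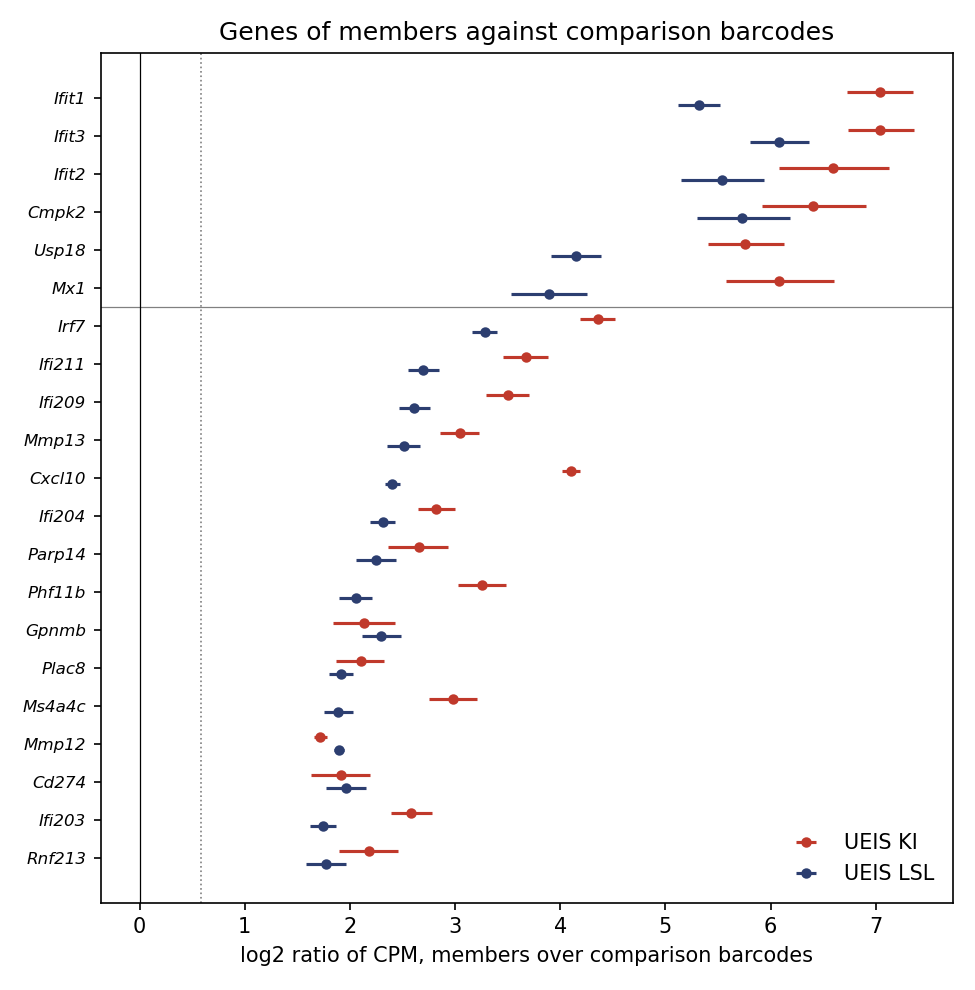
Log2 ratio of CPM in members over *Rsad2*-zero macrophages (x axis) in UEIS KI (red, upper) and UEIS LSL (blue, lower), with exact 95% intervals of counting error. The 6 genes above the grey line had under 20 expected UMIs in a set; the 15 below it are the leading measured genes, ranked by the lower of their bounds, and the dotted line marks 1.5-fold.

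The 15 leading measured genes were not all interferon genes. Genes under the count limit, such as *Ifit1* and *Ifit3*, could not enter this ranking, so its make-up depends on that limit too. *Irf7*, *Ifi211*, *Ifi209*, *Ifi204*, *Ifi203*, *Parp14*, *Phf11b*, *Ms4a4c* and *Rnf213* belong to the interferon-induced group, and *Cxcl10*, a Cxcr3 ligand like Cxcl9, stood at 958 against 55.7 CPM in UEIS KI and 606 against 115 CPM in UEIS LSL. *Cd274*, which encodes the checkpoint ligand PD-L1, stood at 73.1 against 19.3 CPM in UEIS KI and 82.7 against 21.1 CPM in UEIS LSL, with ratios of 3.78 (3.09 to 4.58) and 3.91 (3.42 to 4.46). *Mmp12* and *Mmp13*, matrix-degrading proteases of tumour macrophages, had ratios of 3.29 and 8.25 in UEIS KI and 3.72 and 5.70 in UEIS LSL, and *Gpnmb*, a glycoprotein of lipid-laden macrophages, 4.41 and 4.93. Single barcodes carried much of the protease signal in UEIS KI: 1 member held 39.7% of the *Mmp13* UMIs and 22.4% of the *Mmp12* UMIs, against at most 18.6% and 8.92% in UEIS LSL. *Plac8*, a monocyte gene, had ratios of 4.29 in UEIS KI and 3.78 in UEIS LSL.

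Genes lower in members were led by connective tissue. Past 1.5-fold on that side were 5.69% of measured genes in UEIS KI, 7.75% in UEIS LSL and 1.9% in both. The 10 leading ones were *Col1a2*, *Sparc*, *Col1a1*, *Tm4sf1*, *Col3a1*, *Serpinh1*, *Bgn*, *Crabp1*, *Trf* and *Cald1*, most of them collagens or matrix and contractile genes of fibroblasts. *Col3a1* stood at 11.97 against 73.5 CPM in UEIS KI and 17.4 against 166 CPM in UEIS LSL. Fibroblast markers summed to 18.3 CPM in UEIS KI members and 37.0 CPM in UEIS LSL members, against 175 and 397 CPM in *Rsad2*-zero macrophages. The ratios of *Col1a1*, *Col1a2*, *Col3a1* and *Sparc* in UEIS LSL turned round, to log2 values between 0.26 and 0.91, once *Cxcl9*-positive barcodes were counted as members, and to between 0.30 and 0.79 when membership was read after thinning. *Trf*, which encodes the iron carrier transferrin, was the only gene of the 10 above 50 CPM in members of both libraries, at 96.4 against 176 CPM in UEIS KI and 177 against 287 CPM in UEIS LSL.

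Glycolysis and hypoxia genes were past 1.5-fold in a minority of cases in UEIS KI and in most in UEIS LSL. Of the 20 measured of 21 list genes, 5 in UEIS KI and 17 in UEIS LSL were at least 1.5-fold higher, against 2.71% and 3.87% of all measured genes, with median log2 ratios of 0.37 and 0.79; the same 5 as in UEIS KI were also past it in UEIS LSL. *Hilpda*, a lipid droplet gene, stood at 360 against 205 CPM in UEIS KI and 633 against 142 CPM in UEIS LSL. *Vegfa*, the vessel growth factor, stood at 71.8 against 66.0 CPM in UEIS KI, short of 1.5-fold, and 145 against 60.2 CPM in UEIS LSL. *Slc2a1*, the glucose transporter, stood at 291 against 173 CPM in UEIS KI and 379 against 138 CPM in UEIS LSL. These 3 genes were picked after their values were seen. Neutrophil markers and doublet scores, above, were also further from the *Rsad2*-zero macrophages in UEIS LSL than in UEIS KI, and the difference between the libraries' ratios was not tested.

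Cell cycle genes lay mostly past 1.5-fold on the low side in UEIS LSL members and not in UEIS KI members. Of 30 list genes, 2 in UEIS KI and 22 in UEIS LSL were at least 1.5-fold lower, against 5.69% and 7.75% of all measured genes, so the UEIS KI count is near the background. The list had median log2 ratios of −0.33 and −0.84. *Mki67* or *Top2a*, which mark dividing cells, was seen in 30.1% of UEIS KI members (34) and 18.2% of UEIS LSL members (52), against 34.1% and 25.8% of *Rsad2*-zero macrophages. Without the barcodes that held either gene the UEIS LSL median was −0.40. *Mki67* stood at 63.0 against 81.0 CPM in UEIS KI and 28.6 against 53.3 CPM in UEIS LSL.

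MHC class I genes were partly on the high side and MHC class II genes were not. Of 16 measured class I genes 6 in UEIS KI and 5 in UEIS LSL were at least 1.5-fold higher, against 2.71% and 3.87% of all measured genes. *H2-T22*, the furthest apart of the 16 in UEIS KI, had ratios of 3.19 and 2.41 in UEIS KI and UEIS LSL. *Tap1*, which loads peptides, had 2.90 and 1.73. Of 7 measured class II genes none was 1.5-fold higher in either library, and 1 was lower in UEIS LSL, against 7.75% of all measured genes. *H2-Ab1* stood at 488 against 455 CPM in UEIS KI and 1307 against 1559 CPM in UEIS LSL. The Fc receptor *Fcgr1*, which is interferon-induced, stood at 331 against 138 CPM in UEIS KI and 392.2 against 206 CPM in UEIS LSL.

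Members differed widely among themselves. In barcodes thinned to 5000 UMIs, UEIS KI members had from 2 to 229 UMIs of the type I list with a median of 37.5 (n = 102), and UEIS LSL members from 6 to 196 with a median of 39 (n = 263). *Rsad2*-zero macrophages had medians of 10 in UEIS KI (n = 4163) and 14 in UEIS LSL (n = 3649). Of the members, 64.7% in UEIS KI and 44.9% in UEIS LSL lay above the 95th percentile of their own library's *Rsad2*-zero macrophages, which was 27 and 41 UMIs. At or under that library's *Rsad2*-zero median lay 6.86% of UEIS KI members and 4.56% of UEIS LSL members. The sets overlapped in both libraries.

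**Figure D3:**
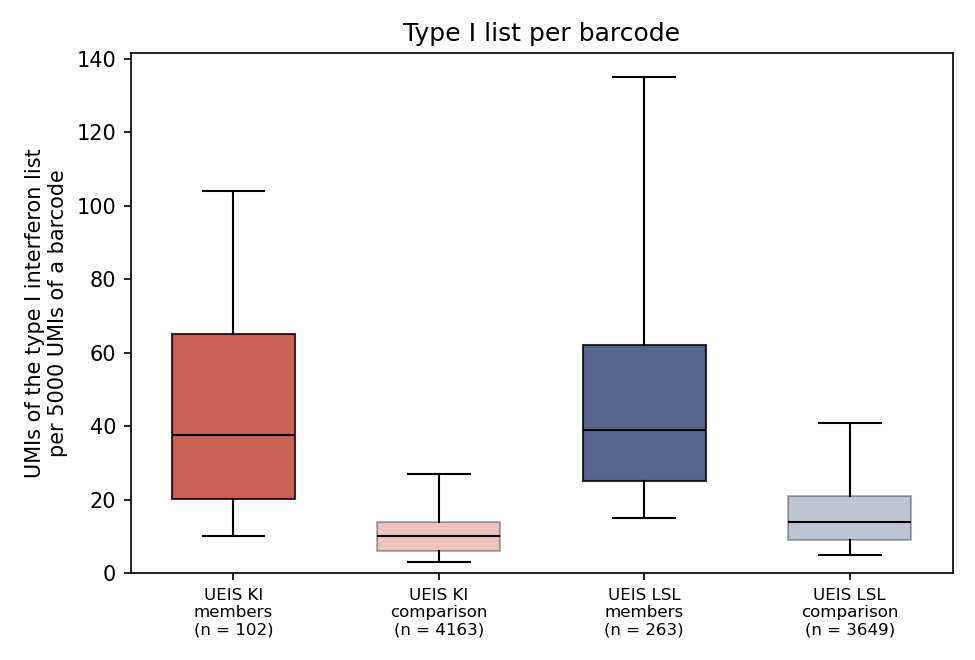
UMIs of the 61 type I list genes per barcode thinned to 5000 UMIs (y axis) in members and *Rsad2*-zero (comparison) macrophages of UEIS KI (red) and UEIS LSL (blue); boxes span the quartiles with the median as a line, whiskers the 5th to 95th percentile of barcodes. The member medians, 37.5 and 39, are close, and the comparison medians are 10 and 14.

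The type I list was lowest in members with 1 *Rsad2* UMI and highest in those with at least 10, which is a description since *Rsad2* chose the members. With 1, 2, 3 to 9 and at least 10 *Rsad2* UMIs, UEIS KI members (36, 17, 35 and 25 barcodes) had summed list levels of 4503, 9783, 8996 and 12752 CPM, with no steady climb between the middle classes. UEIS LSL members in the same classes (105, 55, 68 and 57 barcodes) had 7293, 7640, 8524 and 14867 CPM. The libraries parted most in the lowest class, where the median log2 ratio of UEIS KI over UEIS LSL was −0.73 over 54 list genes. It was 0.35, 0.13 and −0.08 in the other classes, over 47, 58 and 60 genes. These medians use a limit of 5 expected UMIs, and the genes differ between the classes. The GTPase list stood at 318, 607, 438 and 843 CPM in these classes in UEIS KI, and at 322, 337, 376 and 935 CPM in UEIS LSL. The hypoxia list stood at 18402, 21425, 18096 and 21232 CPM in UEIS KI and at 21725, 21195, 20273 and 23543 CPM in UEIS LSL.

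**Figure D4:**
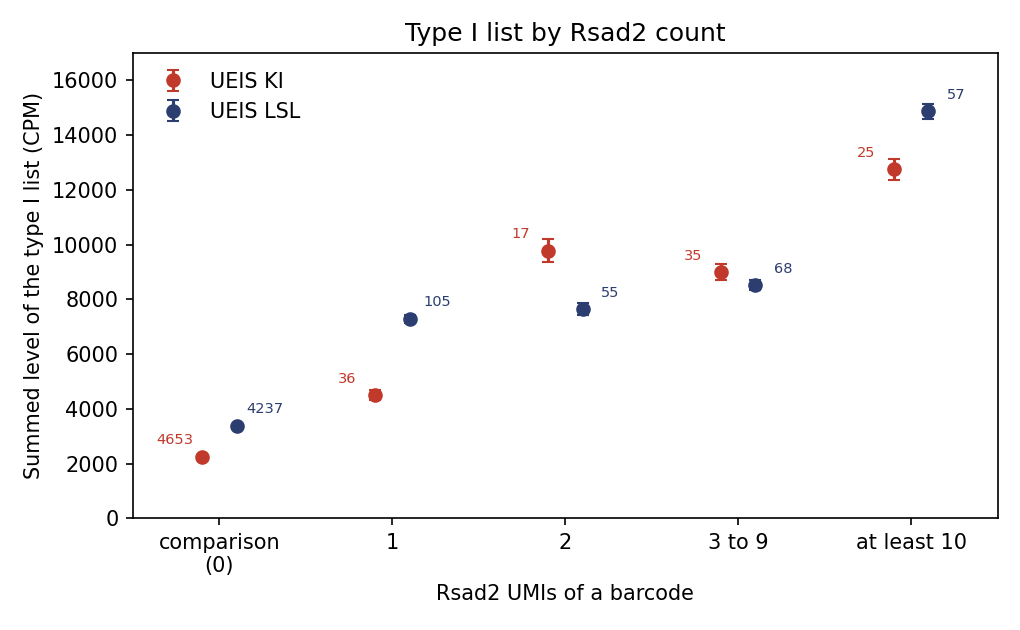
Summed level of the type I list (y axis, CPM) by the number of *Rsad2* UMIs in a barcode (x axis), UEIS KI in red and UEIS LSL in blue, with exact Poisson intervals of counting error and the number of barcodes beside each point. Levels run from 2251 and 3383 CPM in *Rsad2*-zero macrophages to 12752 and 14867 CPM at 10 or more *Rsad2* UMIs.

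Barcodes just outside the limits were as follows. With *Rsad2* but no *Isg15* UMI, 75 UEIS KI and 134 UEIS LSL barcodes had list levels of 2900 and 4138 CPM, and with *Isg15* but no *Rsad2*, 687 and 991 barcodes had 2890 and 4395 CPM, all below the members' 8228 and 9230 CPM. Members with 10 to 19 C1q UMIs had 9446 CPM in UEIS KI (13) and 10172 CPM in UEIS LSL (48), and barcodes with 5 to 9 C1q UMIs that met the other limits had 6448 (11) and 11471 CPM (44). Members with 1 *Lyve1* UMI had 6062 CPM in UEIS KI (12) and 6998 CPM in UEIS LSL (11), and barcodes with 2 had 6009 (8) and 9486 CPM (4). Barcodes with 1 UMI of *Cxcl9* numbered 2 in UEIS KI, with 23620 CPM, and 16 in UEIS LSL, with 7971 CPM. Barcodes with 1 Cd3 UMI numbered 1 in UEIS KI, with 2127 CPM, and 12 in UEIS LSL, with 7248 CPM.

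Between the libraries, the type I list stood at nearly the same level in members. Of 59 measured list genes, 1 was at least 1.5-fold higher in UEIS KI members and none was lower, with a median log2 ratio of −0.07; *Ifit1bl1* was the 1, with 30 UMIs in 14 UEIS KI members and 36 UMIs in 18 UEIS LSL members. The background over 6803 genes was 5.14% at least 1.5-fold higher and 3.95% lower, with a median of 0.05. In *Rsad2*-zero macrophages 33 of 58 list genes lay at least 1.5-fold below UEIS LSL in UEIS KI and none lay as far above it, with a median of −0.62, against 4.56% higher and 6.95% lower of 13510 genes. Members of both libraries had passed the same limit on *Rsad2* and *Isg15*, which are genes of this program. The part of that limit in the like levels of members was not tested.

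*Ifit1* stood at 248 CPM in UEIS KI members and 248 CPM in UEIS LSL members, a ratio of 1.0 (0.887 to 1.13), while in *Rsad2*-zero macrophages it stood at 1.89 and 6.21 CPM, a ratio of 0.304. *Ifi209* stood at 163 CPM in members of both libraries, a ratio of 1.0 (0.861 to 1.16), against 0.541 in *Rsad2*-zero macrophages. *Ifi206* had 0.956 (0.727 to 1.25) in members and 0.140 in *Rsad2*-zero macrophages. *Irf7* had 1.14 (1.02 to 1.28) in members and 0.542 in *Rsad2*-zero macrophages. The chosen genes themselves stood at 493 CPM (*Rsad2*) and 604 CPM (*Isg15*) in UEIS KI members, against 623 and 765 CPM in UEIS LSL members.

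The GTPase list behaved alike. Of 17 genes 9 were measured in members, of which 1 was at least 1.5-fold higher in UEIS KI and none lower, with a median log2 ratio of 0.09. Over all measured genes 5.14% were as far higher in members and 3.95% as far lower. In *Rsad2*-zero macrophages 13 of 13 measured genes were past 1.5-fold on the low side in UEIS KI, against 6.95% of all measured genes, with a median of −1.15. *Gbp2*, a guanylate-binding protein that attacks pathogen vacuoles, stood at 76.2 CPM in UEIS KI members and 74.3 CPM in UEIS LSL members, and at 12.2 and 30.5 CPM in *Rsad2*-zero macrophages. *Ifi47*, an immunity-related GTPase, stood at 120.3 and 106 CPM in members and 12.4 and 33.7 CPM in *Rsad2*-zero macrophages.

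Chemokines split. *Cxcl10* stood at 958 CPM in UEIS KI members and 606 CPM in UEIS LSL members, a ratio of 1.58 (1.48 to 1.69), but at 55.7 and 115 CPM in *Rsad2*-zero macrophages. *Ccl12*, which attracts monocytes, stood at 1756 CPM in UEIS KI members and 812 CPM in UEIS LSL members, a ratio of 2.16 (2.05 to 2.28), with 692 and 756 CPM in *Rsad2*-zero macrophages. *Ccl5*, which attracts T cells and monocytes, stood at 108 and 135 CPM in members, from 9 of 113 and 36 of 285 barcodes, with 31.0% and 33.6% of the UMIs in 1 barcode each. *Cxcl3*, which attracts neutrophils, stood at 20.2 CPM in UEIS KI members and 176 CPM in UEIS LSL members, a ratio of 0.115 (0.0777 to 0.163), with 65.6% of the UEIS KI UMIs in 1 barcode. The neutrophil genes *S100a8* and *S100a9* had ratios of 1.98 and 1.78 in members and 7.90 and 13.5 in *Rsad2*-zero macrophages; 40.8% and 59.4% of the UEIS KI member UMIs lay in 1 barcode, and with at least 2 UMIs of *Rsad2* and of *Isg15* the members' log2 ratios were −1.004 and −3.03.

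**Figure D5:**
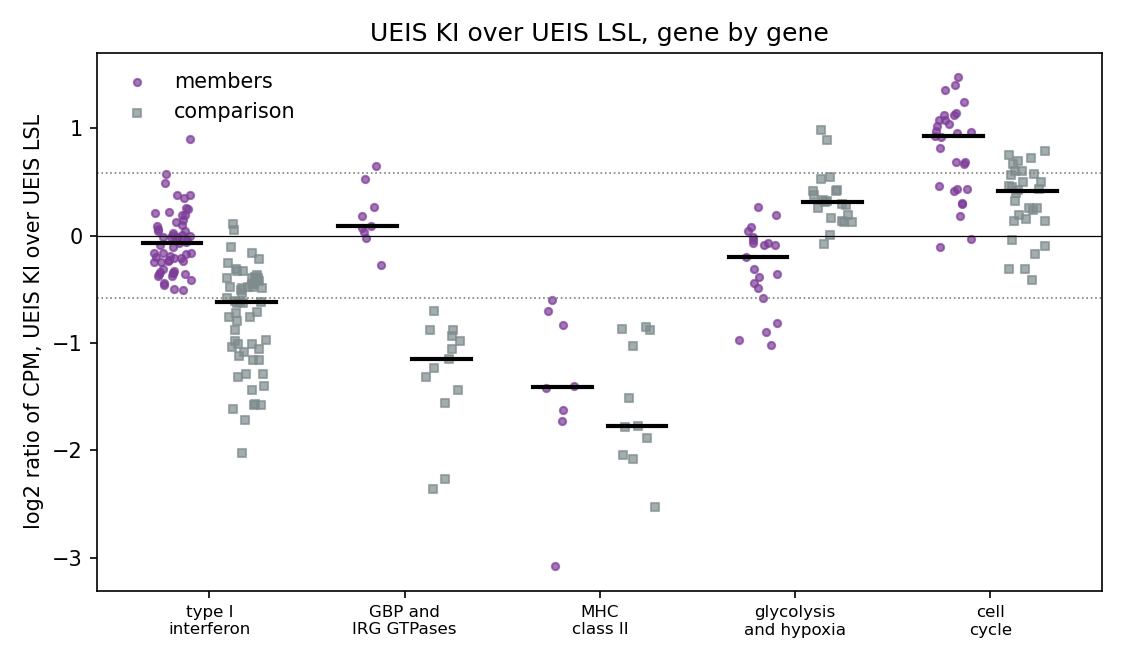
Log2 ratio of CPM in UEIS KI over UEIS LSL (y axis), 1 point per measured gene of 5 lists, in members (purple circles, left) and *Rsad2*-zero macrophages (grey squares, right); black bars are medians and dotted lines mark 1.5-fold. Medians of the type I list are −0.07 in members and −0.62 in *Rsad2*-zero macrophages, while those of MHC class II are −1.41 and −1.78.

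MHC class II genes were lower in UEIS KI in members too. All 8 measured of 11 list genes were past 1.5-fold, with a median log2 ratio of −1.41, and all 11 were lower in *Rsad2*-zero macrophages, with a median of −1.78. Past 1.5-fold on the low side were 3.95% of all measured genes in members and 6.95% in *Rsad2*-zero macrophages. *H2-Aa* stood at 798 CPM in UEIS KI members and 2462 CPM in UEIS LSL members, *Cd74*, the chaperone of class II, at 3468 and 9181 CPM, and *Ciita*, the class II master regulator, at 2.52 and 21.3 CPM, from 3 of 113 and 47 of 285 barcodes. In UEIS KI, *H2-Aa* was seen in 59 of 113 members, and in UEIS LSL in 246 of 285. Beside them *Mgl2*, a lectin, stood at 22.7 and 178 CPM, and the paired membrane proteins *Tmem176a* and *Tmem176b* at 27.7 and 97.0 CPM and at 63.6 and 186 CPM.

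Genes higher in UEIS KI members were led by *Lyz1*, an intestinal-type lysozyme that some tumour macrophages make. It stood at 617 CPM in UEIS KI members and 25.2 CPM in UEIS LSL members, a ratio of 24.5 (19.7 to 30.7), and at 429 and 20.1 CPM in *Rsad2*-zero macrophages. *Spp1*, which encodes osteopontin, stood at 8797 and 3164 CPM in members and at 8705 and 2769 CPM in *Rsad2*-zero macrophages. *Chil3* and *Folr2* had ratios of 3.02 and 2.03 in members, and 2.58 and 1.75 in *Rsad2*-zero macrophages. All 4 genes had the same direction in both sets. *Lyz1* in UEIS LSL members rested on few barcodes, 23 of 285, with 58.9% of the UMIs in 1. Without barcodes that hold another lineage's gene *Chil3* turned round, with a log2 ratio of −0.53 in members.

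Cell cycle genes stood higher in the UEIS KI members. Of 29 measured list genes 20 were at least 1.5-fold higher and none lower, with a median log2 ratio of 0.93, against 7 of 30 and a median of 0.41 in *Rsad2*-zero macrophages. Over all measured genes 5.14% were at least 1.5-fold higher in members and 4.56% in *Rsad2*-zero macrophages. *Ccna2*, a cyclin of S and G2 phases, stood at 91.4 CPM in UEIS KI members and 35.6 CPM in UEIS LSL members, from 29 and 33 barcodes. Without barcodes that held *Mki67* or *Top2a* the members' median was 0.031. The hypoxia list had a median of −0.20 in members, with 4 of 21 genes past 1.5-fold on the low side, against 3.95% of all measured genes. In *Rsad2*-zero macrophages its median was 0.32, with 2 of 21 higher, against 4.56% of all measured genes.

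The nearest neighbours of these macrophages were the *Rsad2* *Isg15* barcodes that did hold *Cxcl9*, 11 in UEIS KI and 57 in UEIS LSL. In UEIS LSL the members, the same barcodes as in the comparisons above, had a like level of the type I list, with a median log2 ratio of 0.16 over 51 genes, 2 at least 1.5-fold higher and 1 lower, against 4.71% higher and 5.7% lower of 5162 genes. The GTPase list was lower in members, with 8 of 9 genes past 1.5-fold and a median of −1.32, as were MHC class II with 7 of 8 and −0.86, and interferon-gamma-induced genes with 11 of 17 and −0.83. Because *Cxcl9*, itself induced mainly by interferon-gamma, parted the 2 sets, these counts describe what travels with *Cxcl9* and support nothing beyond that. Tumour-associated macrophage genes were past 1.5-fold on the high side for 11 of 26 and on the low side for 2, with a median of 0.52, and hypoxia genes for 8 and 1 of 21, with 0.52. *Hmox1*, which breaks down haem, stood at 1817 CPM in members and 625 CPM in the *Cxcl9*-positive barcodes, a gene picked after its value was seen. Fibroblast RNA differed strongly between the sets, with *Col1a1* at 8.41 CPM in members and 847 CPM in *Cxcl9*-positive barcodes, and its part in these values was not tested.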

How the data were processed

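RNA was measured by droplet single-cell sequencing (10x 3' v3 chemistry, per the labels' protocols) of CD45-sorted cells, in 1 library for UEIS KI (9734 barcodes) and 1 for UEIS LSL (9527). Values are whole UMI counts, deposited by the authors as Cell Ranger output without normalisation; the submitters' processing notes name version 2.1.1 and mm10, and the file headers name 8.0.1. The annotation is not given in the sources used here, and 52081 of 55357 gene identifiers (94.1%) matched GENCODE vM21.

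The members, lists and tests were chosen with earlier results of these data known. UMIs of a set were summed per library and divided by the set's total, as CPM of the counts. Ratios carry exact conditional binomial intervals, levels exact Poisson and shares exact Clopper-Pearson intervals, at 95%; a gene at 0 in 1 set was set to a floor of 3 counts per set. A gene was measured with at least 20 expected UMIs in each set at the pooled level, and called at 1.5-fold. No count model was fitted, since each group is 1 library and cells are not replicates. Total UMIs were 99404988 in UEIS KI and 92764697 in UEIS LSL, and medians 8760 and 8117 a barcode. Doublet scores were from Scrublet in scanpy 1.11.5, marking the highest 0.8% per 1000 barcodes, and no barcode was removed for them in the main values. The ratio intervals were tested on simulated data. Named genes were the 15 highest and 10 lowest measured genes of members over *Rsad2*-zero macrophages in both libraries by the bound nearest 1, the 10 highest and 10 lowest of UEIS KI over UEIS LSL in members at 50 CPM or more, the 5 with the largest differences between members and *Rsad2*-zero macrophages in each direction, the 4 most abundant measured genes of each of 29 lists, and every gene of lists with at most 12. Other genes were named outside this rule, and the text does not always say so where they appear. Among these are *Cd68*, *Cgas*, *Sting1*, *Ifnb1*, *Ifng*, *H2-T22*, *Mki67* and *Cd40*. The 19 alternatives and 1 added after seeing the data are in the closing section. Python 3.11.15, numpy 2.4.6 and scipy 1.17.1 were used.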

Additional observations from a re-analysis of the deposited data

Results flagged for a closer look

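The results here went past 1.5-fold in opposite directions in the sets or libraries compared; with 1 library per group the differences were not tested. *Cxcl10* had log2 ratios of UEIS KI over UEIS LSL of 0.66 in members and −1.04 in *Rsad2*-zero macrophages. *Irgm2*, an immunity-related GTPase, had 0.65 and −0.87. *Ccl22*, a dendritic cell chemokine, had 2.14 and −0.996, with 76.4% of its UEIS KI member UMIs in 1 barcode. *Nos2*, which makes nitric oxide, had −1.07 in members and 1.59 in *Rsad2*-zero macrophages, and *Slpi*, a protease inhibitor, had −1.74 and 1.03. *Cxcl3* had log2 ratios of members over *Rsad2*-zero macrophages of −0.65 in UEIS KI and 2.13 in UEIS LSL. *Irgm2*, *Ccl22* and *Nos2* are named here for these values alone.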

How the results depend on the processing

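No paired analysis was possible because each group is 1 library, and for the same reason no replicate was left out. There were 351 values over 19 alternatives and 1 added after seeing the data (barcodes with *S100a8* or *S100a9* left out). Of these, 305 stayed within a 95% interval, or within 1.5 times for counts of genes, and 46 moved further. The added alternative moved none of them further. For list medians this interval measures the spread among the list's genes and not counting error. It is wide for short lists, so few moves could pass it. For MHC class II in members, with 8 genes, it ran from −3.08 to −0.60. Of 1467 values of named genes, 1129 stayed within their intervals of counting error, 325 moved further and 13 turned round. The cause of these moves was not tested unless the alternative's own construction shows it.

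The member share in UEIS KI, 2.25%, was 1.34% with at least 2 UMIs of each gene and 1.31% after thinning. The share in UEIS LSL, 5.36%, was 2.80% with at least 2 UMIs, 4.52% without barcodes that hold another lineage's gene, 4.49% without the highest doublet scores, 6.43% with any *Cxcl9* count and 3.53% after thinning. With a limit of 5 expected UMIs the type I median of members over *Rsad2*-zero macrophages was 2.24 in UEIS KI and 1.70 in UEIS LSL. That limit lets in more genes with a low pooled level, among which are genes found nearly only in members. The type I median of UEIS KI over UEIS LSL in members, −0.07, was 0.065 with at least 2 UMIs, 0.039 with depth weights and 0.019 with each barcode counted alike. The GTPase median in members, 0.09, was −0.050 without the highest doublet scores and −0.049 after thinning, and the Ifi200 median, −0.04, was 0.19 with each barcode counted alike.

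The cell cycle median of UEIS KI over UEIS LSL in members, 0.93, was 0.46 with at least 2 UMIs, 0.031 without *Mki67* or *Top2a* barcodes, 1.09 with each barcode counted alike and 1.24 without the highest doublet scores. The cell cycle median of members over *Rsad2*-zero macrophages in UEIS LSL, −0.84, was −0.99 with at least 2 UMIs, −0.68 with at least 30 C1q UMIs, −0.40 without *Mki67* or *Top2a* barcodes, −0.995 without other lineages' genes, −0.69 centred on all genes, −0.74 against barcodes with *Isg15*, −1.11 with depth weights, −1.02 with each barcode alike, −1.19 without the highest doublet scores, −0.69 with any *Cxcl9* count and −1.26 after thinning.

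Genes higher in UEIS KI members, 350, numbered 223 with at least 2 UMIs, 936 and 108 at 5 and 50 expected UMIs, and 208 without *Mki67* or *Top2a* barcodes; genes lower there, 269, numbered 850 and 107 at 5 and 50. Genes higher in members of both libraries, 108, numbered 226 and 56 at 5 and 50 expected UMIs. Genes lower in members of both, 134, numbered 366 and 47 at these limits, 75 with at least 30 C1q UMIs, 59 centred on all genes, 76 against barcodes with *Isg15*, 206 with depth weights, 244 with each barcode alike and 81 with any *Cxcl9* count.

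In UEIS LSL, with any *Cxcl9* count, the log2 ratios of members over *Rsad2*-zero macrophages turned to 0.60 for *Bgn*, 0.21 for *Cald1*, 0.87 for *Col1a1*, 0.91 for *Col1a2*, 0.26 for *Col3a1* and 0.31 for *Sparc*. After thinning they turned to 0.76 for *Col1a1*, 0.79 for *Col1a2*, 0.72 for *Col3a1* and 0.30 for *Sparc*. Ratios of UEIS KI over UEIS LSL in members turned to −0.53 for *Chil3* without other lineages' genes, and to −1.004 for *S100a8* and −3.03 for *S100a9* with at least 2 UMIs. Depth limits single barcodes: *Ifit1* was seen in 34.3% of UEIS KI members and 34.2% of UEIS LSL members at 5000 UMIs.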

Other observations

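Of the 23 measured genes of the lysosome and lipid list 2 were at least 1.5-fold higher in both libraries, against 1.53% of all measured genes, with median log2 ratios of 0.10 in UEIS KI and 0.20 in UEIS LSL. *Plin2*, which coats lipid droplets, stood at 536 CPM in UEIS KI members against 308 CPM in *Rsad2*-zero macrophages, and at 998 against 312 CPM in UEIS LSL. *Abcg1*, a cholesterol exporter, stood at 39.7 against 23.4 CPM in UEIS KI and 62.0 against 29.2 CPM in UEIS LSL and, with *Plin2*, made up those 2. *Cd36*, a fatty acid receptor that is not among the 23 measured genes of this list, stood at 81.3 against 44.7 CPM in UEIS KI. In UEIS LSL it stood at 126 against 37.5 CPM. The genes were picked after their values were seen.

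Of the 17 measured genes of the inflammatory list 2 were at least 1.5-fold higher in both libraries, against 1.53% of all measured genes, *Il1rn*, the interleukin 1 antagonist, and *Cd40*, the costimulatory receptor. *Il1rn* stood at 310 against 152 CPM in UEIS KI and 262 against 138 CPM in UEIS LSL, and *Cd40* at 42.2 against 15.3 CPM and 44.0 against 21.6 CPM. *Il1b* stood at 973 against 861 CPM in UEIS KI and 1138 against 1418 CPM in UEIS LSL. None of 23 oxidative phosphorylation genes and none of 18 measured immediate early genes was past 1.5-fold in either library or direction.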
